A study of Mus musculus with 12 samples.

Results

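The unstimulated control cells were 3 of the 12 RNA-seq libraries in the series, and they were chosen by their labels alone, as the NTC samples without IFNγ. B16-F10 is a pigmented melanoma line of C57BL/6 mice that was selected for growth in the lung. The cells carried Cas9 from a blasticidin-selected lentivirus and came from 1 sorted clone, which was then transduced with a control guide RNA vector and selected in puromycin. The labels spell the genotype as "No template control", and the study's methods give NTC as a non-targeting control. The other 9 libraries held NTC cells given IFNγ and Mbnl1/Mbnl2 double knockout (DKO) cells with or without IFNγ, and they are used below only to say whether a gene absent here was absent in the other 3 conditions too, and for the correlations between libraries. No contrast between conditions is reported.

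What was measured is the poly(A) RNA of 1 Cas9 clone in culture, with 2 drug resistance genes and none of the stroma, vessels or leukocytes of a tumor. Nothing in the labels says that the 3 libraries came from separate cultures, so the spread given below (SD, n = 3) may be technical. Mbnl1, Mbnl2 and Mbnl3, which encode the splicing factors that the study targeted in other samples, stood at 56.5 ± 0.756, 103 ± 4.12 and 5.36 ± 1.01 TPM in these controls.

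TPM, the number of transcripts of a gene in every 1000000, divides the reads of a gene by its transcript length and by the library's total, so the levels of different genes in 1 library can be set side by side. A gene was taken as absent where its mean over the 3 libraries was under 0.5 TPM and as present otherwise. The study's methods give a depth aimed at, but the file holds no read counts, so the number of reads behind a low value is unknown, and "listed at 0" is written where the file holds 0. In a bulk library, fewer cells that express a gene and less RNA of it per cell cannot be told apart.

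Melanocytes make melanin in the melanosome, a relative of the lysosome. Tyrosinase (Tyr) starts the synthesis, and the related enzymes Dct and Tyrp1 act on later intermediates. Pmel forms the fibrils on which the pigment is laid down, Mlana is a small melanosome protein, and the transcription factor Mitf drives most of these genes together with Sox10 and Pax3. Mitf is known to bind CATGTG, most often with a T before it, in the promoters of the pigment enzymes.

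The promoters of the 3 pigment enzymes are shown because their RNA was among the most abundant in the cells and because they share a run of letters. Each window, from RefSeq on build GRCm38.p6, holds 250 bases before and 50 bases after the start of the gene, and is written 5′ to 3′ on the gene's own strand. The capitals mark the longest run around CATGTG that all 3 windows share. The Tyrp1 window lay on the plus strand at chr4:80833963-80834262, and its run began 48 bases before the start.
Tyrp1: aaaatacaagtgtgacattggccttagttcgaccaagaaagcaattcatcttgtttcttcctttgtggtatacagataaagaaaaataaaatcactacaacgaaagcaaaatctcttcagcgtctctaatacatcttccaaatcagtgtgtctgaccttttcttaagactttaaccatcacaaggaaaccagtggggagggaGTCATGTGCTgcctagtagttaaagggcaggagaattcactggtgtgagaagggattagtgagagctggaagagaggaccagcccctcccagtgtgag
The Dct window lay on the minus strand at chr14:118052197-118052496, and its run began 152 bases before the start.
Dct: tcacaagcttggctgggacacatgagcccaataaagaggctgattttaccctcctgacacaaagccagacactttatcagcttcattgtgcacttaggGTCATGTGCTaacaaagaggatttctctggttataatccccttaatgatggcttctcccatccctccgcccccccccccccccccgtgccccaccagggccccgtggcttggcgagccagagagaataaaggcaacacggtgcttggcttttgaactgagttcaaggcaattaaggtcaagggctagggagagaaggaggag
The Tyr window lay on the minus strand at chr7:87493463-87493762, and its run began 23 bases before the start.
Tyr: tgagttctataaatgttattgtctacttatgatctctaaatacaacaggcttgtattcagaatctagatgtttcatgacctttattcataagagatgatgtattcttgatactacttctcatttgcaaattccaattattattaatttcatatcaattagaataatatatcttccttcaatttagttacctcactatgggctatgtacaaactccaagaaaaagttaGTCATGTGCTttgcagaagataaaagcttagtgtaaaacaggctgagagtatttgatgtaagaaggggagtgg
The shared run, GTCATGTGCT, was 10 bases long. On either strand it was found in 61 of the 32851 promoter windows of mouse RefSeq (0.186%). The Dct window held CATGTG on its other strand as well.

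The shorter letters were common. CATGTG was found on either strand in 14.2% of all windows, and TCATGTG, which contains it, in 3.77%. Of the 33 genes on the melanocyte list, 24 had a window, and TCATGTG was in 6 of their 40 windows, those of Dct, Mc1r, Slc24a5, Trpm1, Tyr and Tyrp1. Mitf had 3 windows, none with CATGTG. The window of its most downstream start is shown because it was the only 1 of the 40 melanocyte windows with TGACGTCA (capitals), the binding site of the cAMP-responsive factor Creb, which was found in 1.79% of all windows. It lay on the plus strand at chr6:97991533-97991832, with the motif 153 bases before the start.
Mitf: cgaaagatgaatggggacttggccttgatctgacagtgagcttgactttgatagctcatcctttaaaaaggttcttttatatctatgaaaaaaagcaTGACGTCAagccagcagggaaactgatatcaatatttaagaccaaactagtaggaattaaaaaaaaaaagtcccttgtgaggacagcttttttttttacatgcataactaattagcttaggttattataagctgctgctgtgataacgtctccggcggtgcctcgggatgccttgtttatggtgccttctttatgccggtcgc
A match is a run of letters, and binding was not measured. The table of windows had no entry for Pmel, Mlana, Gpr143, Slc45a2, Rab38, Sytl2, Sox10, Pax3 and Erbb3.

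Over all genes, the cells expressed about as many genes as they left off. The file listed 23022 genes, of which 10812 (47.0%) had a mean under 0.5 TPM and 12210 (53.0%) stood at or above it. All 3 libraries held 0 for 8251 genes (35.8%). Most of the genes that were present lay between 10 and 100 TPM (6620 genes), 3285 lay between 1 and 10 TPM, 1259 between 100 and 1000 TPM, and 126 at 1000 TPM or more. Of the 10812 absent genes, 10302 were also under 0.5 TPM in each of the other 3 conditions. Among genes annotated as protein coding in GENCODE M21, 9151 of 21050 were absent (43.5%).

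The RNA was concentrated in few genes. The 10 most abundant held 10.3% of the listed TPM, the 100 most abundant 33.0%, and 331 genes the first 50%. None of 159 genes that every cell uses (ribosomal proteins, proteasome, chaperonin, spliceosome, RNA polymerase II and tRNA synthetases) was under 0.5 TPM, and the lowest was Rps27 at 24.1 TPM. Of the 18 cytoskeletal genes on the list of abundant classes, 1 was listed at 0 in all 3 libraries, Tagln2, which encodes an actin-binding protein. Its mean was 0.5 TPM or more in at least 1 of the other 3 conditions. An exact 0 in such a file can be a failed estimate, so a gene at 0 is said only to be listed so.

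**Figure D1:**
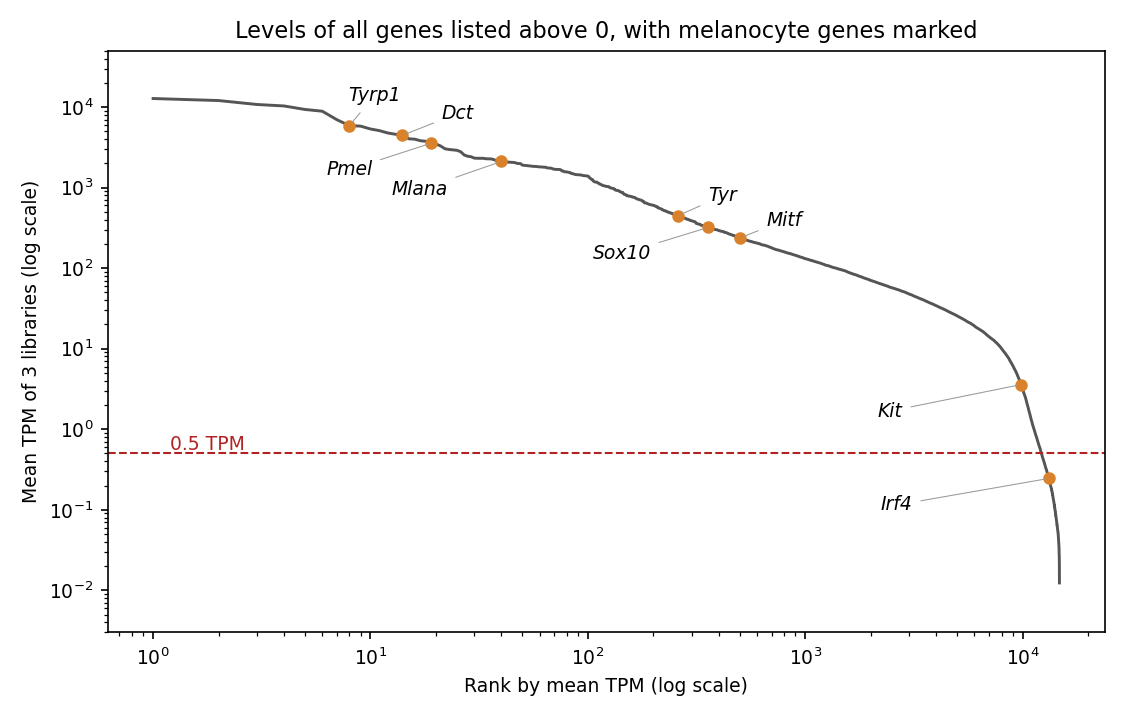
Mean TPM of the 3 unstimulated NTC libraries (log scale) against the rank of the gene (log scale) for every gene listed above 0. Orange points mark melanocyte genes: Tyrp1, Dct, Pmel and Mlana stood among the 40 most abundant genes, Tyr, Sox10 and Mitf among the first 499, and Irf4 below the dashed line at 0.5 TPM.

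Genes of 4 kinds filled the top of the list: mitochondrially encoded respiratory chain genes, translation genes, glycolytic enzymes and pigment genes. Of the 30 most abundant genes, 8 were mitochondrial, 6 encoded ribosomal proteins, 6 were on the glycolysis list and 4 were on the melanocyte list. mt-Atp6, a subunit of the ATP synthase, was the highest at 14397, 11848 and 12030 TPM in replicates 1 to 3. The cytochrome oxidase gene mt-Co2 followed at 12043 ± 1239 TPM, then mt-Atp8 at 10765 ± 1382 TPM. The ranges of neighbours in this order overlapped between libraries, while within each of the 3 libraries the order was the same.

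The highest nuclear genes were Eef1a1, the elongation factor that brings tRNA to the ribosome, at 10317 ± 342 TPM, and Ftl1, the ferritin light chain that stores iron, at 9329 ± 326 TPM. Glycolysis, which breaks glucose down to lactate, had 6 genes among the 30 most abundant. Gapdh stood at 5195, 4778 and 6045 TPM, Eno1 at 4767 ± 374 TPM, Pkm at 4036 ± 111 TPM, Aldoa at 3989 ± 36.3 TPM, Ldha at 3815 ± 144 TPM and Tpi1 at 2417 ± 89.2 TPM. The glucose transporter Slc2a1 (125 TPM) and the hexokinases Hk2 (125 TPM) and Hk1 (81.9 TPM), which start the pathway, were far lower. Gpi1, which acts after the hexokinases, lay between, at 1078 ± 39.2 TPM. All 13 genes of the glycolysis list were present, and together they held 3.30% ± 0.160 of the listed TPM.

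Ribosomal protein genes took the largest share of the classes summed. The 79 genes of the cytosolic ribosome list held 12.8% ± 0.118 of the listed TPM, the 13 mitochondrial genes 7.93% ± 0.806, and the 33 melanocyte genes 2.67% ± 0.0427. Among the other abundant genes of the lists were the translation-associated Tpt1 (2940 TPM), the tubulin Tuba1b (2325 TPM), the cytokine Mif (2309 TPM), the chaperone Hsp90ab1 (1880 TPM), the galectin Lgals1 (1751 TPM) and the metallothionein Mt1 (1542 TPM). Slc38a6, a member of an amino acid transporter family, ranked 18th with 3940, 3698 and 3635 TPM, between Ldha and Pmel. Its transcripts share sequence with many other genes, so this level is uncertain.

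Several of the top values cannot be assigned to 1 gene. Of the 30 most abundant genes, 10 shared over 50% of their 50-base words with transcripts of other genes. Among these were mt-Atp6 (99.5%), mt-Co2 (100%), mt-Co3 (99.9%) and Ftl1 (50.9%). The genes that share words with the 3 mitochondrial ones are not in the file, and the effect on these values was not tested. Gm10123, a processed pseudogene, ranked 7th at 6968 TPM, and every 50-base word of its transcript was also found in transcripts of Ppia, the cyclophilin gene, which stood at 305 TPM. The same held for other pairs in which the entry with a Gm name was the higher one. Gm7536 stood at 1988 TPM against 87.3 TPM for Rpl27a, with 100% of its words in Rpl27a, and Gm10275 at 2310 TPM against 70.1 TPM for Rpl12, with 94.2%. All 7 cytosolic ribosome genes under 100 TPM shared over 10% of their words with another gene, against 64 of 79 in that class. Levels of single ribosomal protein genes and of their copies are therefore uncertain. Slc38a6 shared 22.8% of its words with other genes, spread over 597 genes, of which 416 are in the file. The part of reads from those genes in its value was not tested. None of the 33 melanocyte genes shared over 10% of its words with another gene.

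The melanocyte program was present almost in full. Of its 33 genes, 31 (against 53.0% of all genes) were at or above 0.5 TPM, and 5 were among the 100 most abundant genes. Tyrp1 stood at 6196, 5624 and 5821 TPM and ranked 8th of all genes. Dct stood at 4594, 4366 and 4379 TPM (rank 14), and Tyr at 481, 427 and 438 TPM (rank 260). The 3 enzymes did not overlap in any library, and Tyrp1 and Dct were each several times as abundant as Tyr. Replicate 1 was the highest library for each of the 3.

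**Figure D2:**
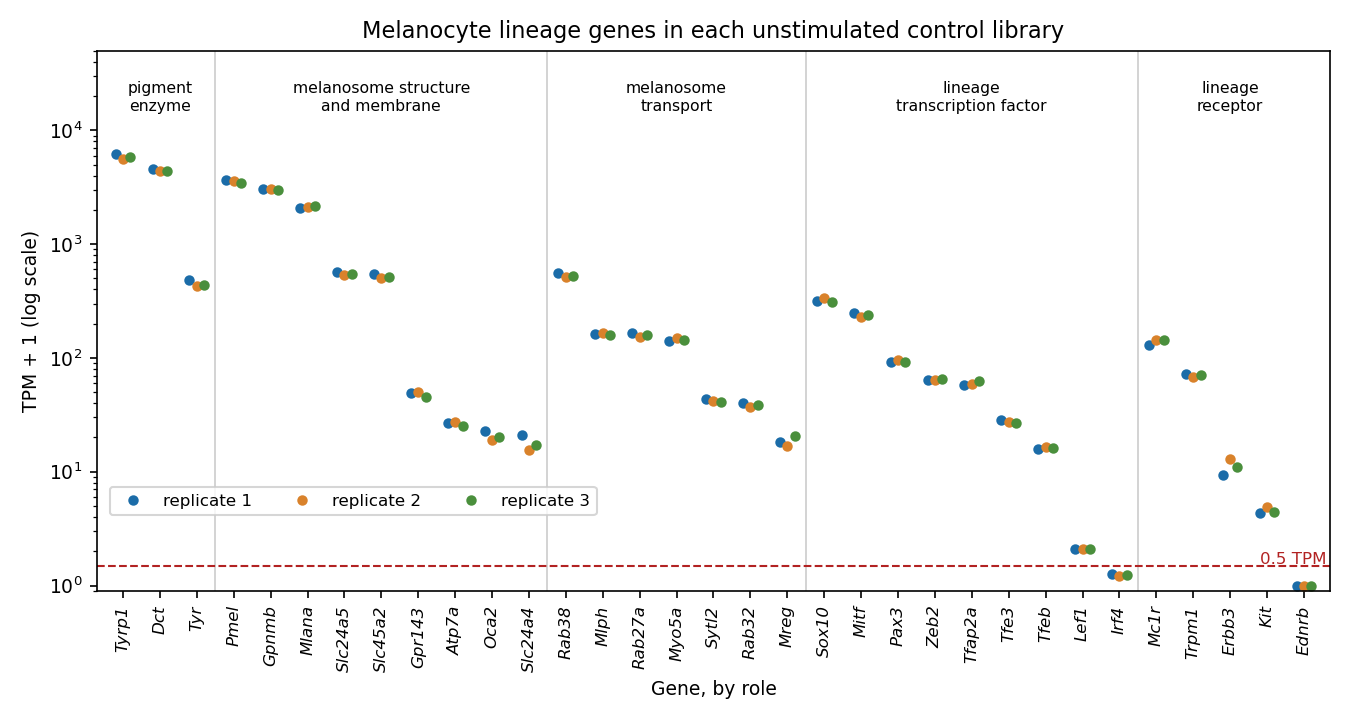
TPM + 1 (log scale) of the 33 melanocyte lineage genes in each of the 3 unstimulated NTC libraries, grouped by role, with the 3 points of a gene side by side and a dashed line at 0.5 TPM. The points of a gene lie close together, from Tyrp1 with a mean of 5881 TPM down to Irf4 under 0.5 TPM and Ednrb at 0.

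The structural genes of the melanosome came next. Pmel stood at 3656, 3554 and 3454 TPM (rank 19), Gpnmb, a glycoprotein related to Pmel, at 3071, 3030 and 2998 TPM (rank 22), and Mlana at 2059, 2116 and 2153 TPM (rank 40). The ranges of these 3 genes did not overlap. The ion exchanger Slc24a5 (550 ± 15.1 TPM) and the transporter Slc45a2 (517 ± 23.2 TPM), which act in the melanosome membrane, were lower, and their ranges overlapped. The remaining membrane genes were lower by a further order of magnitude: Gpr143 at 47.3 TPM, the copper pump Atp7a at 25.6 TPM, Oca2 at 19.7 TPM and Slc24a4 at 16.9 TPM.

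Genes that move melanosomes to the cell edge were all present. The small GTPase Rab38, which sorts cargo to the melanosome, was the highest at 527 ± 21.3 TPM. The complex that ties the melanosome to actin was represented by its GTPase Rab27a (158 ± 6.46 TPM), the linker Mlph (161 ± 2.53 TPM) and the motor Myo5a (143 ± 5.07 TPM). Rab27a and Mlph overlapped in range, and Myo5a lay just below both. Mreg was the lowest of the 7 transport genes, at 17.6 TPM.

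Of the lineage transcription factors, Sox10 stood at 318, 334 and 310 TPM and Mitf at 249, 226 and 236 TPM, and Sox10 was the higher one in every library. Pax3, which acts upstream of Mitf, stood at 92.0 ± 1.76 TPM, Zeb2 at 63.0 ± 0.583 TPM and Tfap2a at 58.7 ± 2.69 TPM. The Mitf relatives Tfe3 (26.6 TPM) and Tfeb (15.2 TPM) were lower than Mitf. Lef1, which pairs with β-catenin, stood at 1.09 TPM. Irf4, a factor that acts with Mitf on the Tyr gene, was under the limit in all 3 libraries, with a mean of 0.245 ± 0.0306 TPM.

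The lineage receptors were uneven. Mc1r, the receptor for melanocyte-stimulating hormone, stood at 128, 144 and 143 TPM, and the channel Trpm1 at 69.3 ± 2.22 TPM. Erbb3 stood at 10.1 ± 1.70 TPM. Kit, the receptor for stem cell factor, was low at 3.35, 3.94 and 3.47 TPM, and its ligand Kitl stood at 0.934 TPM. Ednrb, the endothelin receptor of melanoblasts, was listed at 0 in all 3 libraries.

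Genes of the undifferentiated melanoma state, in which the pigment program is lost, were present about as often as genes in general, and at low levels. Of 13 such genes, 7 were present (53.0% of all genes were), and the intermediate filament gene Nes was the only one over 5 TPM, at 20.4 ± 1.77 TPM. The receptor Axl stood at 2.12 TPM, Sox9 at 4.08 TPM, and Ngfr, the neural crest stem cell receptor, at 0.106 TPM. Egfr, Wnt5a, Sox2 and Twist1 were listed at 0 in all 3 libraries.

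Markers of other cell types were mostly absent, as 39 of 51 were under 0.5 TPM (76.5%, against 47.0% of all genes) and 32 were listed at 0 in all 3 libraries. For leukocytes, 14 of 15 were absent, and Ptprc (CD45), Cd3e and Itgam were at 0. The summed TPM of the 15 leukocyte markers ranged from 2.50 to 2.62 over the 3 libraries, of which 1.70 TPM was Cd68, a lysosomal protein gene. For keratinocytes, 7 of 8 were absent, with Krt5, Krt14 and Epcam at 0, and Cdh1, the E-cadherin gene, stood at 0.715 TPM. The markers with higher levels belong to Schwann cells or neurons, which share the neural crest with melanocytes. The tubulin Tubb3 stood at 144 ± 4.58 TPM, and the myelin gene Mbp at 28.8 ± 1.38 TPM, while Snap25 and Rbfox3 were at 0.

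The immune genes split by role. Of 358 immune genes on the lists, 186 (52.0%, against 47.0% of all genes) were under 0.5 TPM and 122 were listed at 0 in all 3 libraries. Of the 186, 164 were under 0.5 TPM in each of the other 3 conditions as well. The comparison with all genes depends on the limit. At 0.1 TPM, 132 of the 358 immune genes and 8929 of all 23022 genes were under it, a slightly smaller share for the immune genes. At 1 TPM, 220 immune genes and 11732 of all genes were, a larger share for the immune genes. Receptors for interferon, the kinases and factors that carry its signal and the sensors of viral RNA were present, while interferons, most cytokines and chemokines, and the receptors for chemokines were not.

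**Figure D3:**
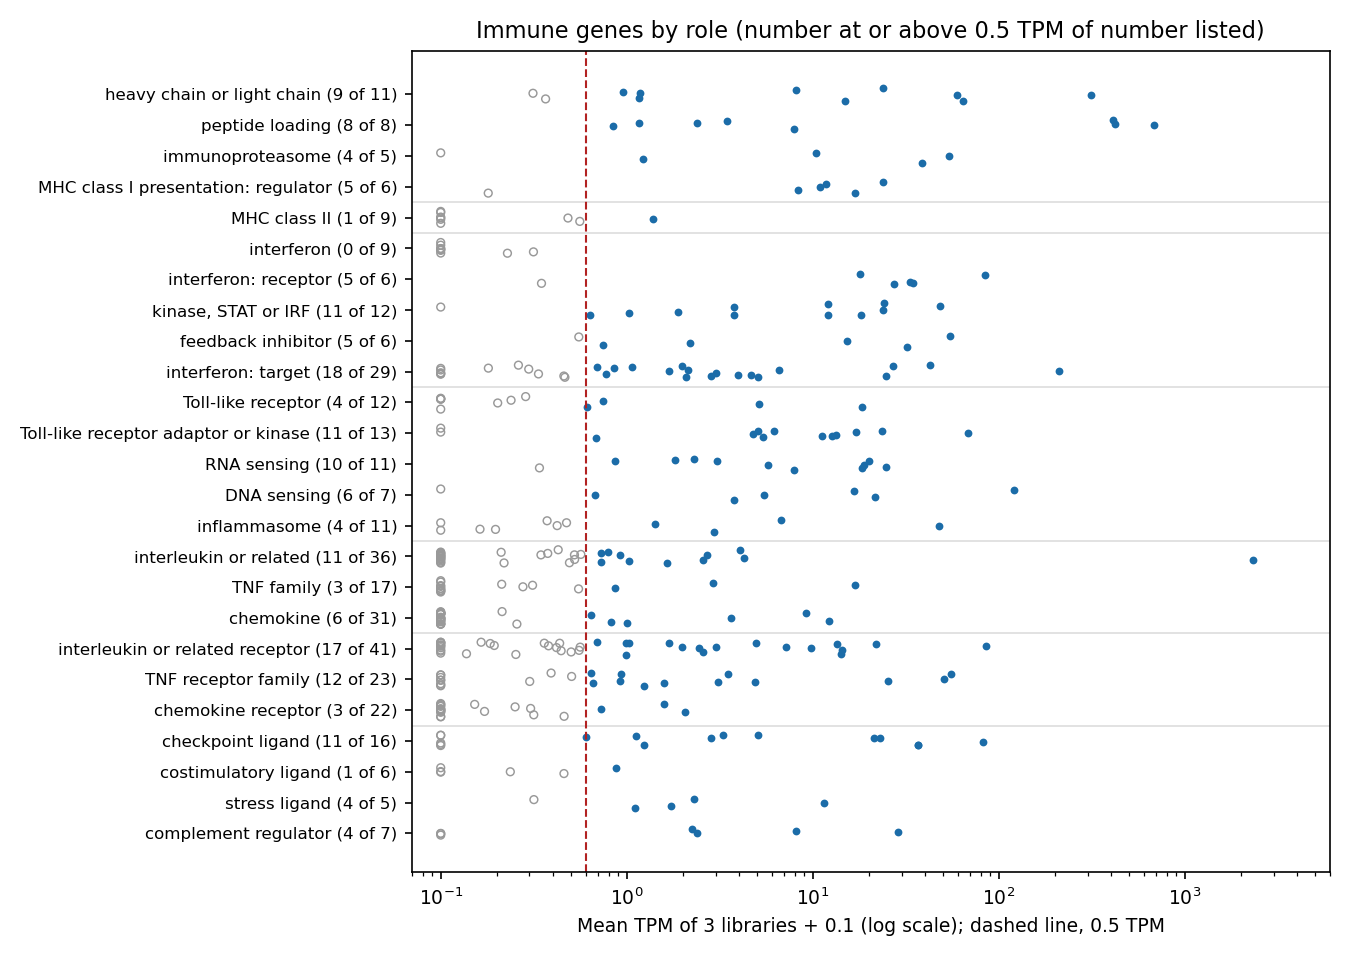
Mean TPM + 0.1 (log scale) of each immune gene in the unstimulated NTC libraries, by role, with filled points at or above 0.5 TPM (dashed line), open points below it, and the number present of the number listed beside each role. Interferons show 0 of 9 present and chemokine receptors 3 of 22, whereas RNA sensing shows 10 of 11 and interferon receptors 5 of 6.

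MHC class I displays peptides of the cell to CD8 T cells, and its parts differed widely in level. B2m, the light chain, stood at 325, 294 and 314 TPM. The heavy chains H2-K1 (60.6, 56.9 and 60.9 TPM) and H2-D1 (64.3, 62.6 and 64.9 TPM) were lower by a factor of several in every library, and H2-D1 lay above H2-K1 in each. The nonclassical H2-T23 stood at 9.76, 6.60 and 7.63 TPM and Mr1 at 23.9 ± 2.00 TPM. H2-Q4, H2-Q6, H2-Q7 and H2-Q10 lie among near-identical neighbours, so their values (14.7, 0.849, 1.08 and 0.266 TPM) are uncertain. The class I-like entry Gm11127, chosen after its values were seen because H2-D1 and H2-Q4 share some of their words with it, stood at 154, 149 and 143 TPM, above both classical heavy chains.

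The general chaperones of the loading complex were abundant and its dedicated parts were not. Calr stood at 677 ± 56.9 TPM, Pdia3 at 419 ± 26.5 TPM and Canx at 411 ± 2.00 TPM. Tapbp (tapasin) stood at 7.78 ± 0.715 TPM and the trimming enzyme Erap1 at 3.36 ± 0.542 TPM. The peptide transporter genes Tap1 and Tap2 were near the limit, at 0.695, 0.737 and 0.806 TPM for Tap1 and 1.27, 0.903 and 1.02 TPM for Tap2.

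The immunoproteasome subunits, which replace the standard catalytic subunits under interferon, were low. Psmb8 was listed at 0 in all 3 libraries, Psmb9 stood at 1.12 ± 0.0804 TPM, and Psmb10 at 10.3 ± 1.13 TPM. The proteasome activators Psme1 and Psme2 stood at 54.1 ± 1.91 and 38.6 ± 3.51 TPM. Nlrc5, the coactivator of class I genes, was at 0, 0.147 and 0.0927 TPM, and Irf1, a factor that acts on the same promoters, was at 8.21 ± 0.0227 TPM. Class II was absent apart from H2-DMb1 (1.29 TPM), as 8 of 9 genes were under 0.5 TPM, against 47.0% of all genes. H2-Aa, H2-Ab1, H2-Eb1 and the master regulator Ciita were listed at 0.

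No interferon gene had a mean of 0.5 TPM or more (0 of 9, against 53.0% of all genes). Ifne stood at 0.645 TPM in replicate 2, and Ifng and Ifnb1 were at 0 in all 3 libraries. The receptors for interferons were present, apart from Ifnlr1. Ifngr1 stood at 17.9 ± 1.11 TPM, Ifngr2 at 27.1 ± 0.216 TPM, Ifnar1 at 33.0 ± 0.718 TPM and Ifnar2 at 34.4 ± 1.74 TPM, and Il10rb was the highest at 83.7 ± 0.567 TPM. Ifnlr1, which forms the type III receptor with Il10rb, stood at 0.248 TPM. Of the 12 kinases, STATs and IRFs, 11 were present: Jak1 at 48.4 TPM, Stat3 at 23.7 TPM, Jak2 at 11.9 TPM, and Irf8 at 0. The feedback inhibitor Socs1 was under the limit (0.423, 0.350 and 0.584 TPM).

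Of the 29 interferon target genes 18 were present, against 53.0% of all genes, and most of them were low. Ifitm2, which hinders virus entry, stood at 211 ± 2.57 TPM, the tethering protein gene Bst2 at 42.3 ± 1.92 TPM, Ifitm3 at 26.9 ± 5.59 TPM, and Ifit2 at 24.7 ± 0.194 TPM. Ifitm2 shares 48.5% of its words with other genes. The others were under 10 TPM, as with Rsad2 (6.46 TPM), Irgm1 (4.95 TPM), Isg15 (3.84 TPM) and Gbp2 (1.97 TPM). The chemokine gene Cxcl10 stood at 5.77, 4.81 and 3.08 TPM, and Cxcl9 and Cxcl11 were at 0.

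Sensors of nucleic acids were present, and most Toll-like receptors were not. For RNA sensing 10 of 11 genes passed 0.5 TPM, against 53.0% of all genes. Ddx58 (RIG-I) stood at 2.20 ± 0.287 TPM, Ifih1 (MDA5) at 1.71 ± 0.245 TPM and their adaptor Mavs at 20.0 ± 1.28 TPM. For DNA, the sensor cGAS (listed as Mb21d1) stood at 3.69 ± 0.639 TPM and its partner STING (listed as Tmem173) at 21.5 ± 0.204 TPM. Of 12 Toll-like receptors 4 were present: Tlr4, the receptor for bacterial lipopolysaccharide, at 18.2 ± 1.41 TPM, Tlr3 at 5.05 ± 0.295 TPM, and Tlr1 and Tlr2 at 0.641 and 0.508 TPM. Ly96, which binds lipopolysaccharide with Tlr4, stood at 13.2 TPM, while Cd14 was at 0. Of the 11 inflammasome genes, 4 were present, with Pycard at 47.3 TPM and Nlrp3 at 0.

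Of 84 cytokine and chemokine genes, 20 were present (53.0% of all genes were). Mif was far above the rest, at 2167, 2383 and 2378 TPM. The next ones, on the interleukin, TNF and chemokine lists together, were the T cell costimulator Tnfsf9 (16.8 ± 1.61 TPM), Ccl27a (12.1 ± 0.931 TPM, with near-identical copies), and Ccl25 (9.11 ± 1.22 TPM). Ccl5, which attracts T cells, stood at 3.54 ± 0.538 TPM and Csf1, the growth factor of macrophages, at 3.94 ± 0.503 TPM. Il1b, Il6, Il10, Ccl2, Cxcl1 and Cxcl12 were listed at 0 in all 3 libraries.

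Receptors for these proteins were present for 32 of 86 genes, against 53.0% of all genes. Cntfr, a receptor subunit for ciliary neurotrophic factor, was the highest at 79.8, 88.4 and 85.8 TPM, and the shared subunit Il6st stood at 14.2 ± 0.748 TPM. Of the TNF receptor family, Tnfrsf12a (55.2 ± 0.916 TPM) and the TNF receptor Tnfrsf1a (50.7 ± 1.15 TPM) led, and Fas was at 0. Of 22 chemokine receptors 3 were present, Ccr10 (1.95 TPM), Ackr3 (1.48 TPM) and Cxcr2 (0.625 TPM), and Cxcr4 was at 0.

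Ligands by which T cells and NK cells are restrained or engaged were present in part. Of 16 checkpoint ligands 11 passed the limit, against 53.0% of all genes. Lgals3 (82.1 ± 7.51 TPM), Cd47, the signal against phagocytosis (36.7 ± 2.84 TPM), and the poliovirus receptor Pvr (36.6 ± 3.73 TPM) were the highest, and the ranges of Cd47 and Pvr overlapped. Cd274 (PD-L1) stood at 2.94, 2.85 and 3.75 TPM, and Pdcd1lg2 (PD-L2) and Ido1 were at 0. On the list of 6 costimulatory ligands outside the TNF family, Icosl (0.780 TPM) was the 1 present, while Cd80 stood at 0.360 TPM and Cd86 at 0. The NKG2D ligand Raet1d stood at 11.4 ± 0.286 TPM, and since 55.8% of its words lie in Raet1e as well, the division between them is uncertain.

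Signalling genes were absent somewhat less often than genes in general. Of 255 signalling genes 101 (39.6%) were under 0.5 TPM, against 47.0% of all genes and 43.5% of genes annotated as protein coding. All 3 libraries held 0 for 63 of the 255. Of the 54 receptor tyrosine kinases, 27 were present. Met, the receptor for hepatocyte growth factor, was several times as high as the next one in every library, at 355, 347 and 349 TPM. The collagen receptor Ddr2 followed at 70.1 ± 4.30 TPM, then the WNT coreceptor Ryk at 61.2 ± 1.57 TPM and the ephrin receptor Epha3 at 50.2 ± 4.13 TPM. The collagen receptor Ddr1 stood at 28.7 ± 2.71 TPM. The EGF receptor gene Egfr, the VEGF receptor gene Kdr, Ret, Alk and Ntrk2 were listed at 0.

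**Figure D4:**
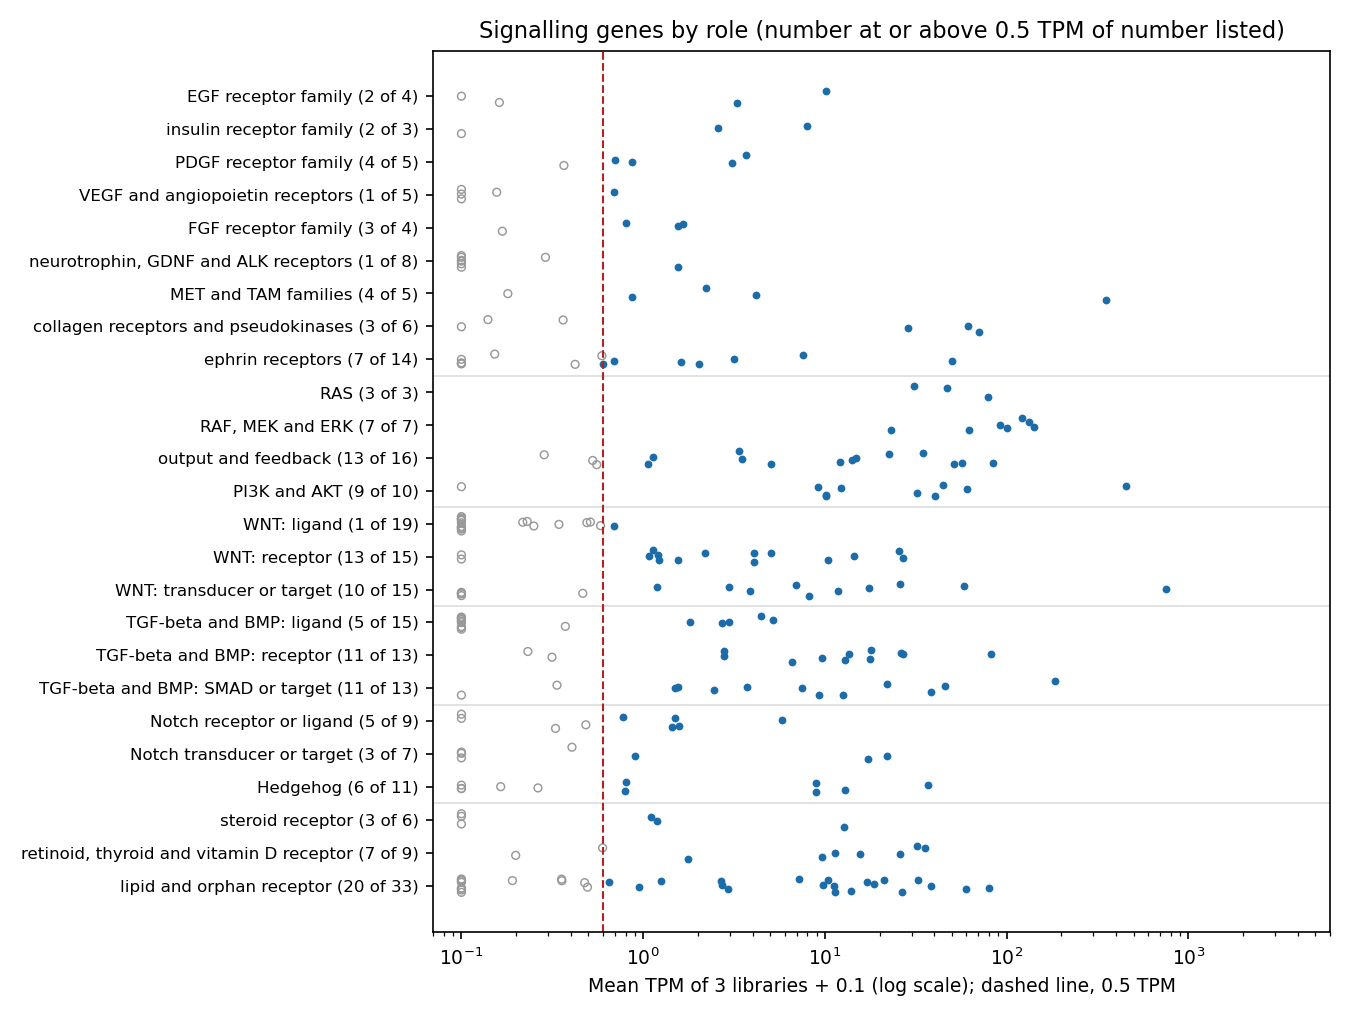
Mean TPM + 0.1 (log scale) of each signalling gene in the unstimulated NTC libraries, by pathway role, with filled points at or above 0.5 TPM (dashed line), open points below it, and the number present of the number listed. WNT ligands show 1 of 19 present and WNT receptors 13 of 15, and all 7 RAF, MEK and ERK genes lie at 22.9 TPM or more.

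The RAS-ERK and PI3K pathways, which carry growth signals from these receptors, were nearly complete. Of their 36 genes 32 were present, against 53.0% of all genes. Nras (79.0 ± 3.45 TPM) and Hras (listed as Hras1, 47.2 ± 1.82 TPM) did not overlap in range. Braf was the lowest of the RAF, MEK and ERK genes at 22.9 ± 1.38 TPM, and Mapk3, which encodes an ERK, stood at 99.9 ± 1.27 TPM. Among genes that ERK turns on, Dusp4 (84.6 ± 2.03 TPM), Myc (56.8 ± 4.72 TPM) and Ccnd1 (51.1 ± 1.13 TPM) were high, while Spry4, Fosl1 and Dusp5 were under 0.5 TPM. Akt1 stood at 456 ± 14.9 TPM.

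Secreted WNT, TGF-β and BMP ligands were largely absent while their receptors were there, where 53.0% of all genes were present. Of 19 WNT genes only Wnt5b passed the limit, at 0.498, 0.783 and 0.491 TPM, with 2 of its 3 libraries below it. Of the 15 WNT receptors 13 were present, led by Lrp6 (26.7 ± 1.29 TPM) and Fzd7 (25.5 ± 3.70 TPM), whose ranges overlapped. Ctnnb1 (β-catenin) was the highest signalling gene of all lists, at 758, 746 and 762 TPM, and its feedback target Axin2 stood at 6.82 ± 0.229 TPM. In the TGF-β and BMP group, 5 of 15 ligands were present, with Gdf11 (5.11 ± 0.859 TPM) and Tgfb2 (4.36 ± 0.136 TPM) the highest and their ranges overlapping. Of the receptors 11 of 13 were present, led by the coreceptor Eng (81.7 ± 2.22 TPM). Id2, a target of BMP signals, stood at 185 ± 4.09 TPM and Id1 at 1.39 ± 0.519 TPM.

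Notch and Hedgehog genes were present for 14 of 27, close to the 53.0% of all genes, and all of them were under 40 TPM. Smo, the Hedgehog transducer, stood at 37.0 ± 2.50 TPM and the receptor Ptch1 at 8.88 ± 0.667 TPM, while Shh was at 0 and the target Gli1 at 0.694 TPM. Notch2 was the highest Notch receptor (5.72 ± 0.0843 TPM), and its targets Hey1 and Hes5 were at 0. Of 48 nuclear receptors 30 were present, against 53.0% of all genes. Nr4a3, an early response gene, stood at 80.4 ± 1.29 TPM, the oxysterol receptor Nr1h2 at 59.7 ± 2.13 TPM, and the glucocorticoid receptor Nr3c1 at 12.6 ± 0.227 TPM. The progesterone receptor Pgr was listed at 0, and the estrogen receptor Esr1 stood at 1.00 TPM.

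A few genes lay so near 0.5 TPM that their place depends on the limit. Just under it were Thrb (0.413, 0.461 and 0.621 TPM), Epha4 (0.535, 0.433 and 0.510 TPM), Wnt9a, Il16 and Il12rb1. Just over it were Epha5 (0.704, 0 and 0.806 TPM), Ido2, Tlr2 and Cd40. Cd40 was present only through replicate 2, where it stood at 1.63 TPM, and was at 0 in the others. Over all genes, 553 of the absent ones reached 0.5 TPM in at least 1 library, 362 of the present ones fell short of it in at least 1, and 117 of the present ones were at 0 in at least 1.

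Cell cycle genes were high. Cdk2 (499 ± 4.26 TPM), Cdk4 (427 ± 5.97 TPM), Cdk1 (238 ± 6.90 TPM) and the cyclin Ccnd2 (248 ± 5.16 TPM) led, and the proliferation marker Mki67 stood at 79.0 ± 3.42 TPM. The Cdk2 gene overlaps the end of Pmel (3554 TPM) on the other strand of chromosome 10. Reads were not assigned by strand, so the Cdk2 value is uncertain, and the part of Pmel reads in it was not tested. Cdk6, which like Cdk4 acts in the passage into S phase, stood at 1.02 ± 0.117 TPM. Trp53 stood at 112 ± 4.33 TPM and the p53 target Cdkn1a at 72.8, 95.5 and 89.8 TPM. Cdkn2a and Cdkn2b, which encode inhibitors of Cdk4 and Cdk6, were at 0 in these 3 libraries and in the 9 others. They lie on chromosome 4 (Cdkn2a at 89274471 to 89294653, GRCm38) next to Mtap, at 89137122 to 89181081, which stood at 112, 126 and 122 TPM. Beyond Cdkn2b, Dmrta1 and Elavl2 were at 0 in all 12 libraries as well. Zfp352 between them was above 0 in another condition (at most 0.163 TPM), and Gm12666, further on, stood at 0.357, 0.369 and 0.371 TPM here. On the other side of Mtap, Ifna4, Ifna5 and 4930553M12Rik were also at 0 in all 12 libraries. Ifna1 and Ifne there reached at most 0.385 and 0.645 TPM. Over all 23022 genes, 6899 were at 0 in all 12 libraries.

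The 3 libraries agreed closely. Across the 12210 present genes, Pearson's r of log2(TPM + 1) between pairs of libraries was 0.9954 to 0.9962, where genes are points and not replicates, and library size and composition are shared by all points. The same r was 0.9896 to 0.9939 with the NTC libraries given IFNγ, 0.985 to 0.989 with the untreated DKO libraries and 0.984 to 0.987 with the DKO libraries given IFNγ. The median SD of log2(TPM + 1) over the 3 libraries was 0.07. It was 0.10 for genes of 0.5 to 1 TPM, where 10% of genes were over 0.48, and 0.04 for genes of 1000 TPM or more. Replicates 2 and 3 were the most alike pair, with 91.4% of present genes within 0.25 of each other on the log2 scale, against 87.7% for replicates 1 and 2.

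Among the genes that differed, the mitochondrial ones stood out. They held 8.85%, 7.35% and 7.59% of the listed TPM in replicates 1 to 3, and 12 of the 13 were highest in replicate 1, mt-Nd4l being the exception. Of the words of mt-Nd4l, 98.8% lie in Gm10222 as well, which stood at 1890, 1407 and 1177 TPM. The division between these 2 entries is uncertain, and so is the exception. The glycolysis list took 3.13%, 3.32% and 3.44%, and 0 of its 13 genes was highest in replicate 1. Base composition moved with the libraries too. Across 7963 genes, Spearman's rho between GC content and a gene's deviation from its mean was -0.33 in replicate 1, 0.29 in replicate 2 and 0.10 in replicate 3, as a description over genes that share the libraries. The part of base composition in the mitochondrial and glycolytic differences was not tested.

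**Figure D5:**
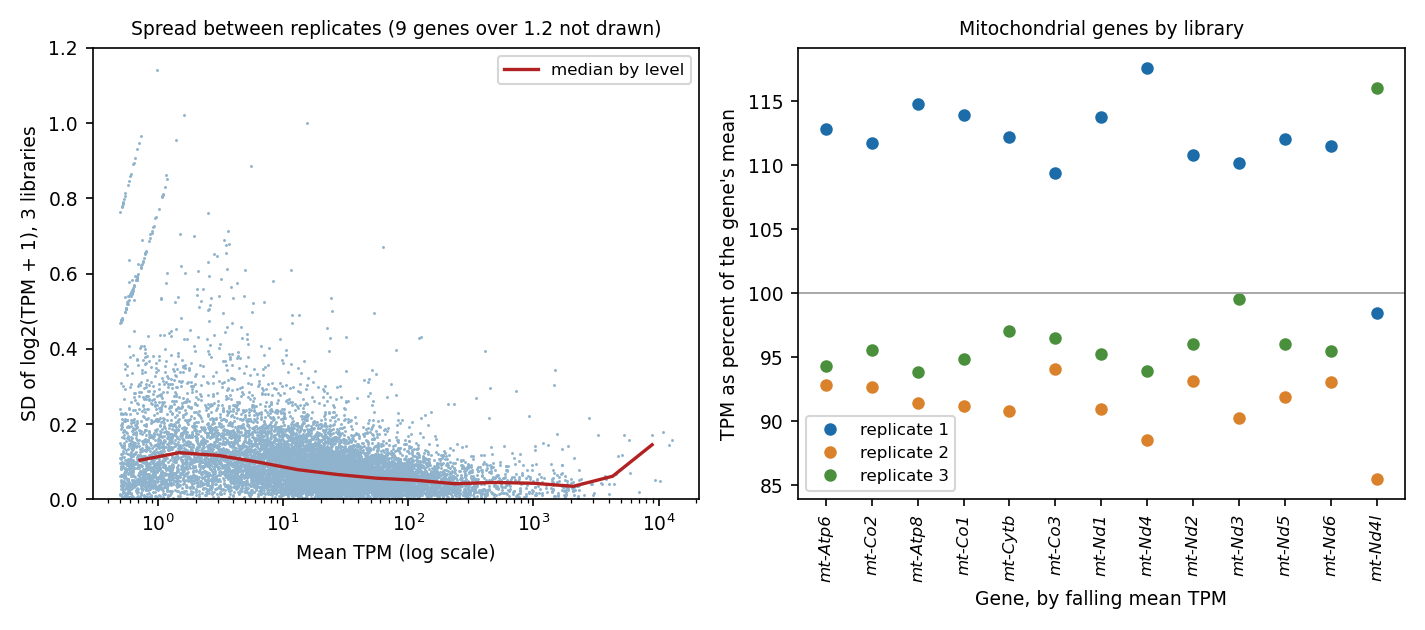
Left, SD of log2(TPM + 1) over the 3 unstimulated NTC libraries against mean TPM (log scale) for the 12210 genes at or above 0.5 TPM, with the median by level in red (it climbs again at the top, where few genes lie) and 9 genes over 1.2 left out. Right, TPM of each of the 13 mitochondrial genes in each library as a percent of the gene's mean: replicate 1 is the highest for 12 of them.

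Of the 8005 genes at 10 TPM or more, 86 had an SD over 0.25 on the log2 scale and 5 had one over 0.5. The 10 with the largest SD were FAM103A1, Gm10175, Gm2000, Rps27, Sumo2, Gm20390, Cxx1a, Gm2004, Vkorc1l1 and Gm10282. FAM103A1, annotated as a processed pseudogene, stood at 21.4, 20.0 and 5.52 TPM, and 100% of its words lie in transcripts of Fam103a1. Most of the others also have a near-identical partner, as with Gm10175 (100% of words in Atp5g2) and Gm2000 (85.1% in Rpl35). None of the 10 was on the melanocyte, immune or signalling lists.

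The share of CpG-rich promoters differed between genes of different levels. Of 20223 promoter windows of genes in the file, the share with at least 0.6 of the CpG dinucleotides that their C and G content would give was 15.2% for genes listed at 0 in mean, 52.4% for genes of 0.5 to 10 TPM, 76.2% for genes of 10 to 100 TPM and 84.3% for genes of 1000 TPM or more. The windows of the pigment enzymes shown above held CpG at 0.225 (Tyrp1), 0.236 (Dct) and 0 (Tyr) of that expectation, where the median was 0.862 for genes of 1000 TPM or more and 0.828 for genes of 100 to 1000 TPM, the class of Tyr. TATAAA, sought on the gene's strand between 45 and 15 bases before the start, was found in 5.43% of the windows of genes listed at 0 in 0.621% of those of genes of 10 to 100 TPM, in 1.5% at 100 to 1000 TPM and in 1.96% at 1000 TPM or more.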

How the data were processed

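Poly(A) RNA of B16-F10 cells was sequenced from unstranded libraries. The authors mapped the reads with RSEM 1.2.4, which called Bowtie, to a transcriptome merged from Ensembl 71, UCSC and MISO annotations, and mapped the rest to mm10 with TopHat, given in the submitters' processing notes as version 20.8b. The deposited values are TPM per gene. TPM keeps no depth, so the replicate spread is the measure of precision. Every deposited TPM value was a whole multiple (tolerance 0.01) of a hundredth of a TPM times a factor per library (0.939, 0.922 and 0.927 here), and the 3 libraries summed to 860268, 844185 and 849753. How that factor was set is not given in the sources used here. Reads were not assigned by strand, so overlapping and antisense genes cannot be told apart.

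The 3 NTC untreated columns were averaged, with the SD over libraries. Genes with a mean under 0.5 TPM were counted as absent, and log2(TPM + 1) was used for the spread and the correlations. No test was run. Named genes were the 30 most abundant, the genes of the lists (per role, the highest and those under 0.5 TPM), the 5 list genes nearest to 0.5 TPM on each side, and the 10 with the largest spread among genes of at least 10 TPM. The lists and the part of the series described were chosen with earlier results of these data known. Shared sequence was measured as the share of 50-base words of a gene's GENCODE M21 transcripts found in another gene's. Promoter windows came from RefSeq (GRCm38.p6). Of the windows, 20223 matched genes of the file by symbol. The list symbols Gbp5, Gbp6, Flt3l and Rpl24 carry an identifier of another gene in GENCODE and are uncertain, and Hhla2, Cd58, Raet1a, Raet1b, Raet1c, H60a, Xist and Tsix were not matched. The scripts, in Python 3.11.15 with pandas 2.3.3, scipy 1.17.1 and numpy 2.4.6, were tested on simulated data, and matplotlib 3.10.9 drew the figures. Some genes that the rule names are not reported here. Alternatives left out each library, rescaled the libraries, moved the limit to 0.1 and 1 TPM, required each library to be under it, kept protein-coding genes, and changed the pseudocount and the filter.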

Additional observations from a re-analysis of the deposited data

How the results depend on the processing

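Of 78 values recomputed under 13 alternative settings, 63 moved by less than the replicate spread or, for counts, stayed within 1.5 times. The level of a gene depends on the scaling of the libraries. With each library scaled to the same sum of 1000000 TPM, the means were 527 TPM for Tyr, 5222 TPM for Dct, 4175 TPM for Pmel, 2478 TPM for Mlana and 278 TPM for Mitf. With the library factors undone, chosen after seeing the data, they were 482 TPM for Tyr, 4784 TPM for Dct, 3825 TPM for Pmel, 2270 TPM for Mlana and 255 TPM for Mitf. The median SD was 0.0409 with no filter on the mean and 0.0612 for genes of at least 10 TPM, and leaving out 1 library gave 0.0505 to 0.0659, where 2 libraries give a smaller SD by construction. Without the 13 mitochondrial genes, also chosen after seeing the data, the 100 most abundant genes held 29.2% of the listed TPM. Leaving out 1 library gave 10762 to 10817 absent genes, 184 to 188 absent immune genes, 100 to 101 absent signalling genes and 31 melanocyte genes present each time, and 29 of the 30 most abundant genes remained each time. No paired analysis was possible because the results come from no test and 1 condition. The reads behind each value are unknown, so absence means only a level under the limit in libraries of this kind.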

Other observations

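Of 39 Hox genes, which set position along the body axis, 20 were present (53.0% of all genes were). HoxA and HoxB genes were present for 9 of 11 and 7 of 10, led by Hoxa10 (28.9 TPM) and Hoxb9 (25.6 TPM). HoxD genes were present for 4 of 9, led by Hoxd13 (10.9 TPM). HoxC genes were present for 0 of 9, and 7 of them were listed at 0 in all 3 libraries. Hoxc6 lay near the limit, at 0, 0.728 and 0.677 TPM.

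All 7 Y-linked genes on the lists were listed at 0 in all 3 libraries. Of 156 genes on chromosome Y, 153 (98.1%, against 47.0% of all genes) were under 0.5 TPM. Of the 156, 150 were listed at 0 in all 12 libraries, against 6899 of all 23022 genes. The 3 genes over the limit, named after their values were seen, were ERDR1 (51.7 TPM) and a pair of entries named G530011O06RIK (5.19 and 5.65 TPM). Their place on chromosome Y is that of the annotation, and whether their RNA came from that chromosome was not tested.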
